A study of Mus musculus with 8 samples.

Results

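The C-type lectin genes of liver macrophages described here, Clec4f, Clec1b, Cd209f, Cd207, Cd209a, Mgl2, Clec10a, Clec7a and Clec4n, were followed through 8 mouse libraries. They were taken by gene symbol, 9 of the 24786 symbols in the count tables, and all 9 were among the 15254 genes that passed the filter on low counts. Kupffer cells are the macrophages that reside in the liver. They and monocyte-derived macrophages (MoM) were taken from livers of dnTGFβRII mice (TG) and of wild-type mice (WT), all on the C57BL/6 strain, with 2 libraries of polyA RNA per group. The dnTGFβRII transgene encodes a dominant-negative TGF-β receptor II that is known to be driven by the CD4 promoter, so that it acts in T cells, and the mice serve as a model of autoimmune cholangitis. The sources used here do not give the ages of the mice, the sorting gates or whether the replicates were separate animals. The p-values therefore measure the spread between these libraries, which may be technical.

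C-type lectin receptors bind sugars, lipids or proteins through a calcium-dependent or related fold. Some sit on macrophages as scavenging receptors that take up glycoproteins, and others pass a signal through Syk and Card9 when they meet fungal walls or dead cells. In the liver, Clec4f is known as a galactose-binding lectin of Kupffer cells, Clec1b (CLEC-2) as the podoplanin receptor that platelets also carry, and Cd207 (langerin) as the mannose-binding lectin that marks Langerhans cells of the skin. Cd209f and Cd209a belong to the mouse family related to DC-SIGN. Mgl2 and Clec10a are the paired galactose-type lectins CD301b and CD301a of dendritic cells and macrophages. Clec7a (dectin-1) binds beta-glucans, and Clec4n (dectin-2) binds mannans.

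The 9 genes lie on 3 chromosomes of the mouse genome (GRCm38, GENCODE M21 positions), and several are neighbours. Clec4f (chromosome 6, 83644542 to 83656187, minus strand) and Cd207 (chromosome 6, 83671215 to 83677857, minus strand) lie next to each other, 15.0 kb apart. Mgl2 (chromosome 11, 70130329 to 70137550, plus strand) and Clec10a (chromosome 11, 70156197 to 70170834, plus strand) are separated by 18.6 kb. Chromosome 8 holds Cd209a (3743397 to 3748984, minus strand) and Cd209f (4102787 to 4105835, minus strand), the latter 28.3 kb from its paralog Cd209g. Clec4n (123229843 to 123247021, plus strand), Clec1b (129397297 to 129409335, plus strand) and Clec7a (129461591 to 129472779, minus strand) lie further along chromosome 6.

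Promoter sequences are shown for the genes on which the results turn: 3 lectins of Kupffer cells, of which Cd209f and Cd207 stood far lower in TG, and the 2 lectins called higher in MoM. Each is the 250 bases before the start site in RefSeq (GRCm38.p6), written 5′ to 3′ on the gene's strand in lower case, with every match to a searched motif in capitals. The 7 motifs searched on both strands were PU.1 GAGGAA, AP-1 TGANTCA, C/EBP TTGCNNAA, MAF TGCTGAC, RBPJ GTGGGAA, the TATA box TATAAA and ISRE, which is GAAA, any 2 bases and GAAA. The letters of MAF and AP-1 can overlap, and no matches overlapped in these windows. The windows are chr8:4105765-4106014 (minus strand) for Cd209f, chr6:83677858-83678107 (minus) for Cd207, chr6:83656117-83656366 (minus) for Clec4f, chr8:3748985-3749234 (minus) for Cd209a and chr11:70130107-70130356 (plus) for Mgl2.
Cd209f: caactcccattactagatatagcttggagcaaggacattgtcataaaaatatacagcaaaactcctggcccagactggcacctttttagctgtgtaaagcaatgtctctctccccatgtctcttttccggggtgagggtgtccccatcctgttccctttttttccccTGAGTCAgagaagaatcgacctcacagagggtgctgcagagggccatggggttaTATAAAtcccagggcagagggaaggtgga
Cd207: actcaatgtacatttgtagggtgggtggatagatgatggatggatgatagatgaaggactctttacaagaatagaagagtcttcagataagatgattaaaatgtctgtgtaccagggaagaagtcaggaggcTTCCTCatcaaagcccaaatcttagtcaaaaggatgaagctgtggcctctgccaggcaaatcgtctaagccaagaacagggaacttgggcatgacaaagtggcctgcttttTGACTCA
Clec4f: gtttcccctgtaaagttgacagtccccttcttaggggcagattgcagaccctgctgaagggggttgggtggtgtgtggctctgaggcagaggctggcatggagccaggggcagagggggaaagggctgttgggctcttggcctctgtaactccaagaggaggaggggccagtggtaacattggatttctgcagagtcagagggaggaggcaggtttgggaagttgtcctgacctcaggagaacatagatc
Cd209a: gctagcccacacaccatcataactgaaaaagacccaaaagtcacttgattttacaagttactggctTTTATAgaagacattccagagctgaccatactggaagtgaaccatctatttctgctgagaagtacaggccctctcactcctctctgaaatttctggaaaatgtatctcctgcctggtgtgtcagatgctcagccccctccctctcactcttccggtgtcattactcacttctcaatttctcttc
Mgl2: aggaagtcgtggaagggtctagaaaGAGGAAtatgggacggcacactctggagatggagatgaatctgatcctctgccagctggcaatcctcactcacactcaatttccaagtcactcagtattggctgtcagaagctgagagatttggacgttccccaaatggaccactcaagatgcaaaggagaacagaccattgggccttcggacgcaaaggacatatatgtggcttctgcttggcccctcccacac
Cd209f and Cd207 each held 1 match to the AP-1 motif, which 6.75% of 32851 mouse promoter windows of this length hold. It lay 83 to 77 bases before the start in Cd209f and 7 to 1 bases before it in Cd207. Cd209f also held a TATA box 29 to 24 bases before the start, a motif found at any place and on either strand in 12.4% of windows. The GENCODE spans given above reach into the windows of Cd209f, Clec4f and Mgl2, so RefSeq and GENCODE place these starts differently. The TATA box of Cd209f lies inside its GENCODE span. Cd207 held the PU.1 motif on the opposite strand 118 to 113 bases before the start, and Mgl2 held it 225 to 220 bases before the start, against 23.3% of all windows. Cd209a held a TATAAA match on the opposite strand, 184 to 179 bases before the start. None of the 7 motifs was found in the window of Clec4f, the neighbour of Cd207. These matches are letters in a window and were tied to no measurement of binding.

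Libraries held 26190194 to 30308132 counts. Levels are CPM, counts relative to the library size scaled by the TMM factors of edgeR, on which 1 count equals 0.0309 to 0.0378 CPM. Kupffer markers checked the labels. Timd4 stood at 414 to 897 CPM and Vsig4 at 1173 to 2643 CPM in the Kupffer libraries. Of the 8 libraries, 4 stood apart in their Kupffer, endothelial, neutrophil or cholangiocyte markers. MoM WT replicate 1 held 7875 CPM summed over 13 Kupffer markers, 31.3% of the WT Kupffer mean, where the other MoM libraries held 512 to 973 CPM. It also held 6215 CPM over 11 endothelial markers, and Kupffer TG replicate 2 held 10011 CPM of them, against 602 to 2652 CPM elsewhere. Cdh5 led that sum in Kupffer TG replicate 1 and both WT Kupffer libraries, at 973 to 1300 CPM, so the sum there may not stand for endothelial RNA alone. MoM TG replicate 2 held 3707 CPM over 10 neutrophil markers, with Ngp at 1584 CPM. MoM WT replicate 2 held 649 CPM of them, against 33.5 to 143 CPM in the remaining 6 libraries, and 340 CPM over 5 cholangiocyte markers, against 1.04 to 51.4 CPM elsewhere. The remaining libraries held RNA of other cells too. MoM TG replicate 1 held 326 CPM over 5 NK cell markers, against 3.81 to 169 CPM elsewhere, and 218 CPM over 5 B cell markers, against 20.1 to 157 CPM. Hepatocyte markers summed to 7.33 to 738 CPM, with 47.4 and 389 CPM in the WT Kupffer libraries. In these bulk libraries, fewer cells of a type and less RNA per cell cannot be told apart.

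Within a cell type, the lectins spanned a wide range of levels per kb of exon. In WT Kupffer cells Clec4f led with 4830 ± 218 CPM per kb (SD, n = 2), followed by Cd207 with 181 ± 61.5, Clec7a with 124 ± 43.8, Clec4n with 78.9 ± 8.40 and Clec1b with 65.5 ± 8.2. Cd207 and Clec7a overlapped between their libraries, and no other neighbours in the order did. Cd209f followed with 17.4 ± 2.61 CPM per kb and Clec10a with 6.59 ± 0.963, and Cd209a and Mgl2 closed the order below 1 CPM per kb. In TG Kupffer cells Clec4f still led, and Cd207 had moved to the fifth place with 20.4 ± 11.3 CPM per kb, below Clec7a, Clec4n and Clec1b. In TG MoM the order opened with Clec7a at 324 ± 78.9 CPM per kb and Cd209a at 151 ± 25.7, and ended with Cd207 and Cd209f. In WT MoM the 2 libraries disagreed on the leading lectin, since Clec4f ranged from 13.5 to 1457 CPM per kb between them.

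**Figure D1:**
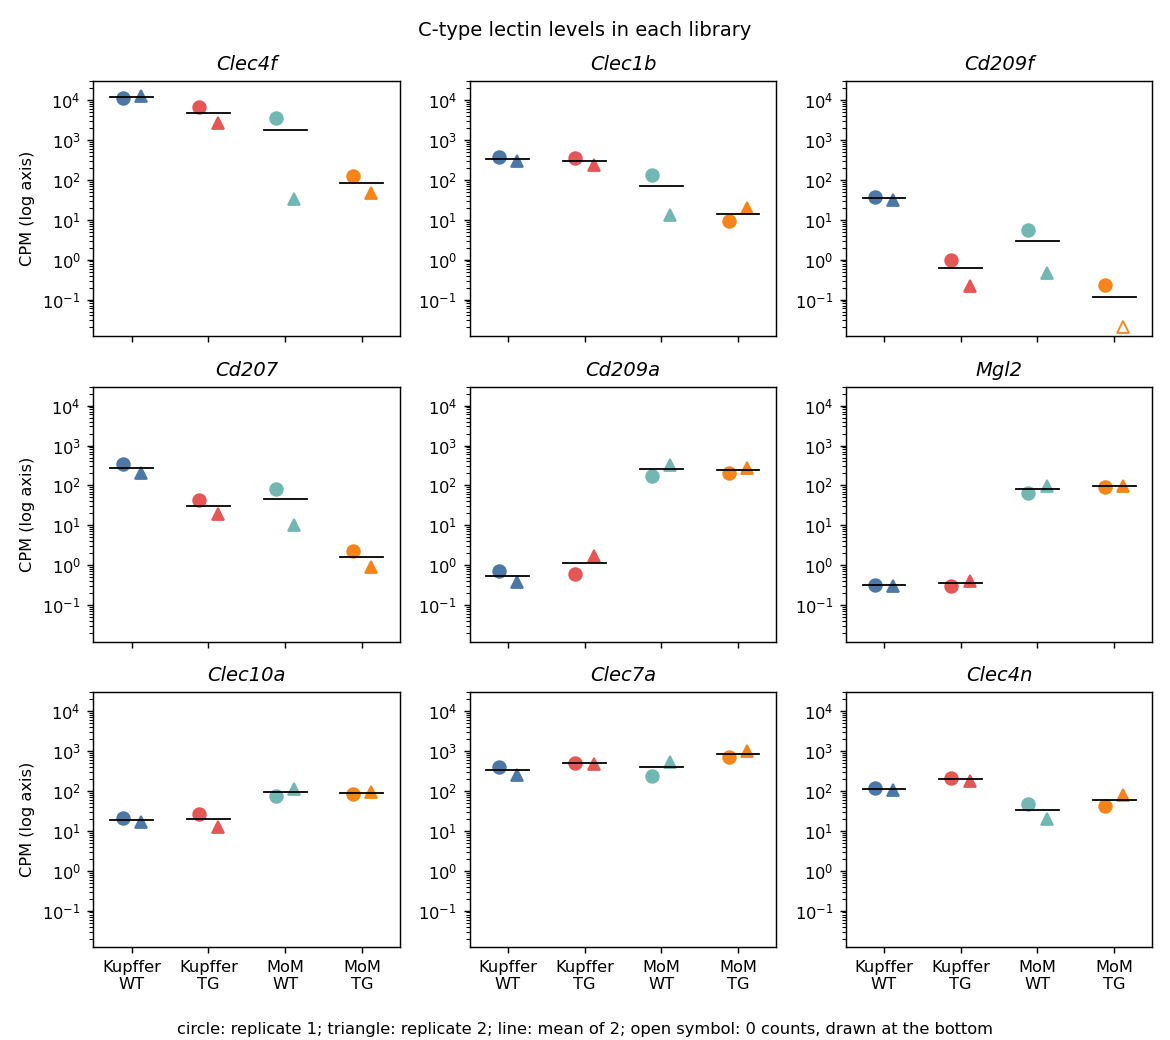
CPM of each of the 9 lectins in every library on a log axis, with 2 libraries in each of the 4 groups. Cd209a and Mgl2 stand above 60 CPM in the 4 MoM libraries and below 2 CPM in the 4 Kupffer libraries. Cd209f and Cd207 are lower in both TG Kupffer libraries than in both WT Kupffer libraries.

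MoM were set against Kupffer cells in each genotype to ask which lectins separate the subsets. Cd209a and Mgl2, lectins of monocyte-derived and dendritic cells, were the 2 of 9 members called higher in MoM, in WT and again in TG, and no member was called lower (edgeR quasi-likelihood F-test, adjusted p below 0.05 over all genes). Of all 15254 genes, 1.17% were called in WT (1.11% higher, 0.059% lower) and 2.5% in TG (1.84% higher, 0.656% lower). At an unadjusted p below 0.05, 6 members stood out in WT and 7 in TG, against 25.4% of all genes in each. In WT, both MoM libraries lay above both Kupffer libraries for 3 members and below them for 5. Over all genes, 38.5% lay above and 29.7% below in this way. In TG, 4 members lay above and 4 below, against 29.1% and 23.8% of all genes. The median log2 fold change of the 9 members was -1.76 in WT and -1.68 in TG, against 0.11 and -0.04 over all genes.

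Cd209a stood at 0.718 and 0.373 CPM in WT Kupffer cells, 0.605 and 1.66 CPM in TG Kupffer cells, 175 and 333 CPM in WT MoM and 210 and 267 CPM in TG MoM. Every MoM library thus lay far above every Kupffer library, and the 2 genotypes of MoM overlapped. Cd209a rose in MoM by a log2 fold change of 8.85 ± 0.74 (SE) in WT (edgeR adjusted p = 0.0260) and 7.71 ± 0.70 in TG (adjusted p = 0.0188). Mgl2 stood at 0.323 and 0.299 CPM in WT Kupffer cells, 0.302 and 0.406 CPM in TG Kupffer cells, 64.1 and 97.1 CPM in WT MoM and 93.2 and 95.7 CPM in TG MoM. It rose by 8.0 ± 0.35 in WT (adjusted p = 0.00385) and by 8.04 ± 0.35 in TG (adjusted p = 0.00367). Both lectins showed the step between subsets in all 4 MoM libraries, MoM WT replicate 1 included.

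The calls depended on which libraries the fit could use. Across the fits that left out 1 library, the number of all genes called also varied widely, as given under the dependence on processing. The counts of members called in these fits are thus not read as particular to the lectins. In WT the members called were 0 without Kupffer WT replicate 1 or without replicate 2, 1 without either TG MoM library or without MoM WT replicate 2, and 5 without MoM WT replicate 1. In TG they were 0 without Kupffer TG replicate 1, 1 without either WT Kupffer library or either TG MoM library, and 6 without either WT MoM library. Mgl2 lost its call in WT without Kupffer WT replicate 1 (edgeR adjusted p = 0.147) or replicate 2 (0.184), and in TG without Kupffer TG replicate 1 (0.0643). Over the fits that left out 1 library, its log2 fold change stayed at 7.66 to 8.26 in WT and 7.82 to 8.16 in TG, and that of Cd209a at 8.31 to 9.37 and 7.13 to 8.50. Cd209a lost its WT call without either WT Kupffer library, either TG MoM library or MoM WT replicate 2, and its TG call without Kupffer TG replicate 1, either WT Kupffer library or either TG MoM library. It kept both calls in the other fits that left out 1 library.

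Clec10a, the partner of Mgl2, was present in both subsets. It stood at 21.1 and 17.1 CPM in WT Kupffer cells, 27.0 and 12.3 CPM in TG Kupffer cells, 73.2 and 115 CPM in WT MoM and 83.6 and 94.8 CPM in TG MoM. Every MoM library was above every Kupffer library, by a log2 fold change of 2.30 ± 0.43 in WT (edgeR adjusted p = 0.0660) and 2.18 ± 0.42 in TG (adjusted p = 0.0551). Neither passed the threshold in that fit. Clec10a was called higher in 7 of 16 alternatives in WT and in 5 of 15 in TG, DESeq2 among them (adjusted p = 0.000146 in WT and 0.000366 in TG). Of the fits that left out 1 library, edgeR called it in WT without Kupffer TG replicate 1 (adjusted p = 0.0129), Kupffer TG replicate 2 (0.0114) or MoM WT replicate 1 (0.0476), and in TG without MoM WT replicate 1 (0.0461) or replicate 2 (0.0460). Of the 50-base windows of its exons, 8.49% were identical to a stretch of Mgl2, and 12.2% of those of Mgl2 to a stretch of Clec10a, so that reads there could be split or shared between the pair. The 10 dendritic cell markers summed to 1963 to 2901 CPM in MoM, where Itgax was the highest, and to 138 to 830 CPM in Kupffer cells, where Ciita or Dpp4 was, with no marker at 0 in any library. Their log2 fold changes for MoM against Kupffer cells were above 0 for 10 of 10 in WT (4 called higher, median 4.97) and for 9 of 10 in TG (2 called higher, median 2.05), Xcr1 being the exception (-0.95 ± 0.81). Kupffer TG replicate 2, the library with the most endothelial RNA, had the 830 CPM, with Dpp4 at 353 CPM, above every MoM library. The other dendritic markers stood below every MoM library there, Flt3 at 17.4 and Ccr7 at 23.5 CPM, except Xcr1 at 28.1 CPM. Cd209a stood at 1.66 CPM and Mgl2 at 0.406 CPM in that library. Flt3, a receptor of dendritic cells and their precursors, stood at 199 to 313 CPM in MoM and at 1.05 to 17.4 CPM in Kupffer cells, and Ccr2, a chemokine receptor of monocytes, at 128 to 460 and 3.88 to 13.1 CPM. The part of dendritic cells in the lectin levels was not tested.

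Clec4f, Clec1b, Cd207 and Cd209f had their highest levels in WT Kupffer cells, and edgeR on all 8 libraries called none of them lower in MoM. DESeq2 called more genes than edgeR, 2867 against 178 in WT and 2563 against 381 in TG, higher and lower together. Of these lectins it called 3 lower in MoM in WT, namely Clec1b (adjusted p = 0.0472), Cd209f (0.0263) and Cd207 (0.0295). In TG it called Clec4f (adjusted p = 0.000282), Clec1b (1.57e-05) and Cd207 (0.000119). Clec4f stood at 11553 and 12314 CPM in WT Kupffer cells, 6558 and 2736 CPM in TG Kupffer cells, 3599 and 33.3 CPM in WT MoM and 125 and 45.6 CPM in TG MoM. The 2 WT MoM libraries lay far apart. Clec1b stood at 364 and 304 CPM in WT Kupffer cells, 357 and 238 CPM in TG Kupffer cells, 129 and 13.2 CPM in WT MoM and 9.37 and 19.2 CPM in TG MoM. Again MoM WT replicate 1 was the high one of its group.

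In that library Clec4f held 30.2% of its WT Kupffer mean, Clec1b 38.5%, Cd207 30.03% and Cd209f 15.8%, beside 31.3% for the summed Kupffer markers. With it in the fit, the log2 fold change of Clec4f for MoM against Kupffer cells in WT was -2.72 ± 1.70 (edgeR adjusted p = 0.333) and that of Clec1b -2.24 ± 0.96 (adjusted p = 0.207). Without it, both were lower in MoM, Clec4f by 8.49 and Clec1b by 4.67 on the log2 scale. That fit leaves WT MoM with replicate 2 alone, the library with the most cholangiocyte RNA, which is assumed to vary like the other groups. The library left out had been singled out by its Kupffer markers. Lower Kupffer lectins in that fit thus follow in part from the choice and are no separate support. Cd207 had -2.57 ± 1.01 and Cd209f -3.54 ± 1.40 in WT with all libraries (adjusted p = 0.183 and 0.184). In TG, where no MoM library held so much Kupffer RNA, the log2 fold change was -5.77 ± 1.96 for Clec4f (adjusted p = 0.136), -4.38 ± 1.06 for Clec1b (0.0768) and -4.26 ± 1.11 for Cd207 (0.0863). Cd209f was too low in TG to compare, with 26 and 6 counts in Kupffer cells and 6 and 0 counts in MoM (-2.40 ± 1.62, adjusted p = 0.405).

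Platelets carry Clec1b too, and platelet markers were low. The 8 platelet genes, with Itga2b the highest at 16.2 CPM, summed to 2.38 to 7.96 CPM in Kupffer cells and to 9.94 to 20.6 CPM in MoM. The part of platelets in the Clec1b level was not tested. Clec1b also overlaps Clec9a, a lectin of dendritic cells, and 2.64% of its 50-base windows are identical to Clec9a. Clec9a stood at 31.6 to 63.9 CPM in Kupffer cells and at 39.4 to 120 CPM in MoM, and the part of shared reads was not tested.

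**Figure D2:**
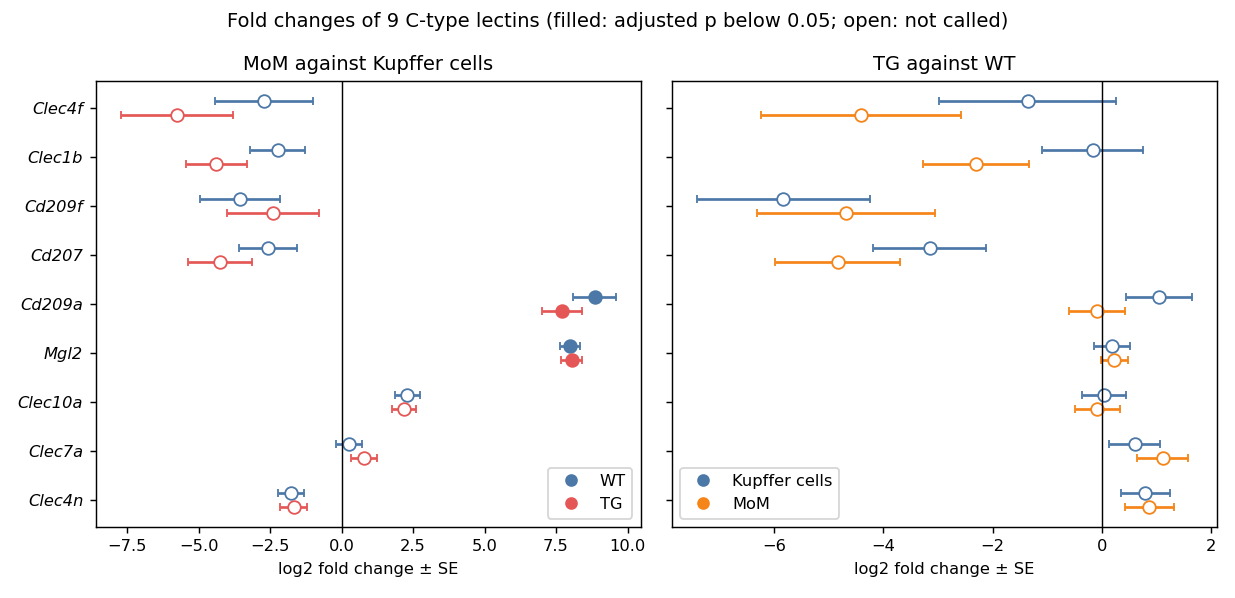
Log2 fold changes of the 9 lectins with their SE, on the left for MoM against Kupffer cells in WT and TG and on the right for TG against WT in Kupffer cells and MoM. Cd209a and Mgl2 lie near 8 on the left. On the right Mgl2 lies near 0 in both subsets and Cd209a at 1.05 in Kupffer cells and -0.09 in MoM, while Cd209f and Cd207 lie below -3 on the right in both subsets.

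TG was set against WT in each subset to ask how the lectins stand in mice with the transgene. In Kupffer cells, Cd209f and Cd207 were the members farthest from 0, and both stood lower in TG. Neither was called by edgeR (0 of 9 members, beside 0% of all genes). At an unadjusted p below 0.05, 2 of 9 members stood out, these same genes, against 5.94% of all genes. DESeq2 on the 8 libraries called 251 genes, Cd209f and Cd207 among them. Both TG libraries lay below both WT libraries for 3 members and above for 2, against 17.7% and 16.7% of all genes. The members' median log2 fold change was 0.04, against 0.03 over all genes.

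Cd209f, a relative of DC-SIGN, had 1063 and 826 counts in the WT Kupffer libraries and 26 and 6 counts in the TG Kupffer libraries. This corresponds to 38.2 and 30.8 CPM against 0.983 and 0.221 CPM. Both TG libraries lay far below both WT libraries. The log2 fold change was -5.83 ± 1.58, 57.0-fold lower (edgeR adjusted p = 0.730). DESeq2 gave -5.83 ± 1.26 with an adjusted p of 0.00131 on all libraries and an adjusted p of 4.34e-13 on the 4 Kupffer libraries alone. Of 15 alternatives only these 2 called it, and edgeR on the 4 Kupffer libraries did not. In the authors' deposited table of 179 genes for TG against WT, Cd209f had a log2 fold change of -5.83 with an error of 0.714 and an adjusted p of 4.15e-13, the largest of the 28 falls listed. That table is built from these same libraries and is no independent support.

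Cd207 stood at 342 and 209 CPM in WT Kupffer cells and at 43.1 and 18.9 CPM in TG Kupffer cells. The groups did not overlap, and the log2 fold change was -3.15 ± 1.04, 8.89-fold lower (edgeR adjusted p = 0.730). DESeq2 gave -3.14 ± 0.92 (adjusted p = 0.0429) on all libraries and an adjusted p of 1.77e-06 on the 4 Kupffer libraries. Only these 2 of 15 alternatives called it. In the authors' deposited table Cd207 had a log2 fold change of -3.14 with an error of 0.530 and an adjusted p of 1.69e-06, the fourth largest fall. Without Kupffer TG replicate 2, the library with much endothelial RNA, edgeR's log2 fold changes were -5.08 for Cd209f and -2.63 for Cd207, neither called.

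Cd209g, the paralog next to Cd209f, had the same order of levels. It stood at 11.6 and 7.84 CPM in WT Kupffer cells and at 0.491 and 0.221 CPM in TG Kupffer cells (log2 fold change -4.76 ± 1.09, edgeR adjusted p = 0.730). Of the 50-base windows of Cd209f, 29.8% are identical to a stretch of Cd209g, so the 2 genes may share reads and are not fully separate measurements. The other paralogs had low levels. In Kupffer cells Cd209b stood at 0.983 to 6.82 CPM, and Cd209c, Cd209d and Cd209e at 0 to 0.907 CPM. In MoM, Cd209b stood at 2.60 to 7.63 CPM, Cd209c at 5.37 to 8.09 CPM, Cd209d at 1.56 to 3.73 CPM and Cd209e at 1.39 to 3.60 CPM, none called in any comparison. Among 42 C-type lectin genes, the members and 33 others, Cd209f, Cd209g, Cd207 and Clec4f held the 4 lowest log2 fold changes for TG against WT in Kupffer cells, in this order.

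**Figure D3:**
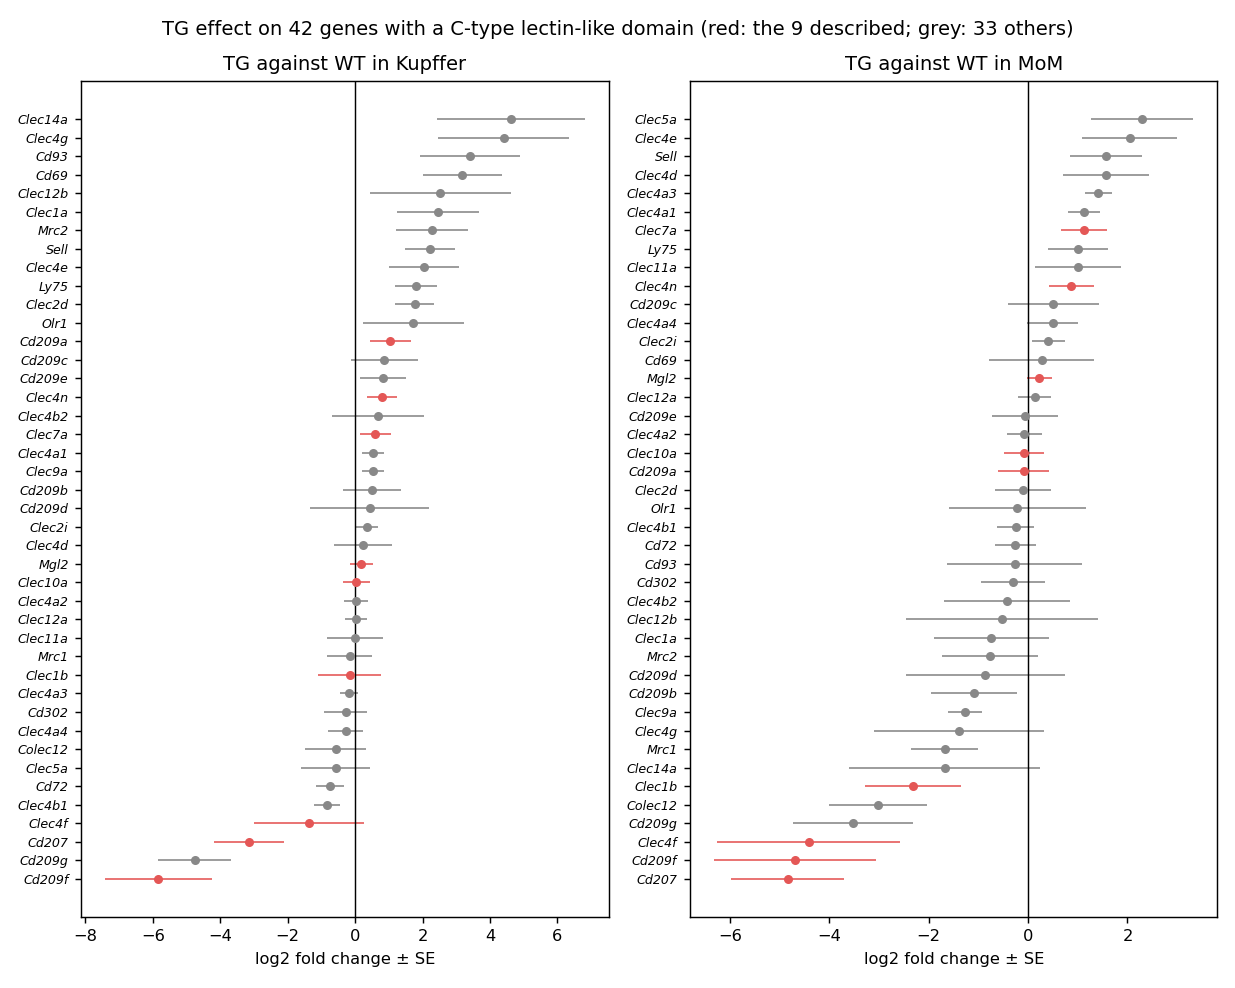
Log2 fold changes for TG against WT of 42 C-type lectin genes with their SE, sorted, in Kupffer cells and in MoM, with the 9 members in red. In Kupffer cells Cd209f, Cd209g and Cd207 lie at the low end, and Clec1b, Clec10a and Mgl2 lie near 0.

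The 4 lectins of Kupffer cells did not stand together when read against the summed Kupffer markers, and neither did the markers themselves. The markers' log2 fold changes for TG against WT in Kupffer cells ran from -1.64 for Cd163 to 2.62 for Marco, 10 below 0 and 3 above. Clec4f, at -1.36, lay between Cd163 and Folr2 (-1.14). In the TG Kupffer libraries the 13 Kupffer markers summed to 28563 and 14942 CPM, against 24760 and 25579 CPM in WT. Divided by that sum, Cd209f held 2.505% and 1.08% of its WT Kupffer mean, Cd209g 4.43% and 3.81%, and Cd207 13.7% and 11.5%. Clec4f held 48.4% and 38.6%, and Clec1b 94.1% and 120%. The WT Kupffer libraries themselves ranged from 74.4% to 126% for these genes. Marco, a scavenger receptor on the marker list, stood at 5492 and 3309 CPM in TG and at 687 and 743 CPM in WT. With Marco left out of the sum, the values were 3.01% and 1.35% for Cd209f, 16.5% and 14.4% for Cd207, 58.3% and 48.2% for Clec4f and 113% and 149% for Clec1b, in the same order.

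Clec4f and Clec1b themselves were not called between the genotypes of Kupffer cells. The log2 fold change was -1.36 ± 1.62 for Clec4f (edgeR adjusted p = 0.870), and both TG libraries lay below both WT libraries. For Clec1b it was -0.17 ± 0.92 (adjusted p = 0.978), the groups overlapped, and the sign turned to 0.14 without Kupffer TG replicate 2.

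**Figure D4:**
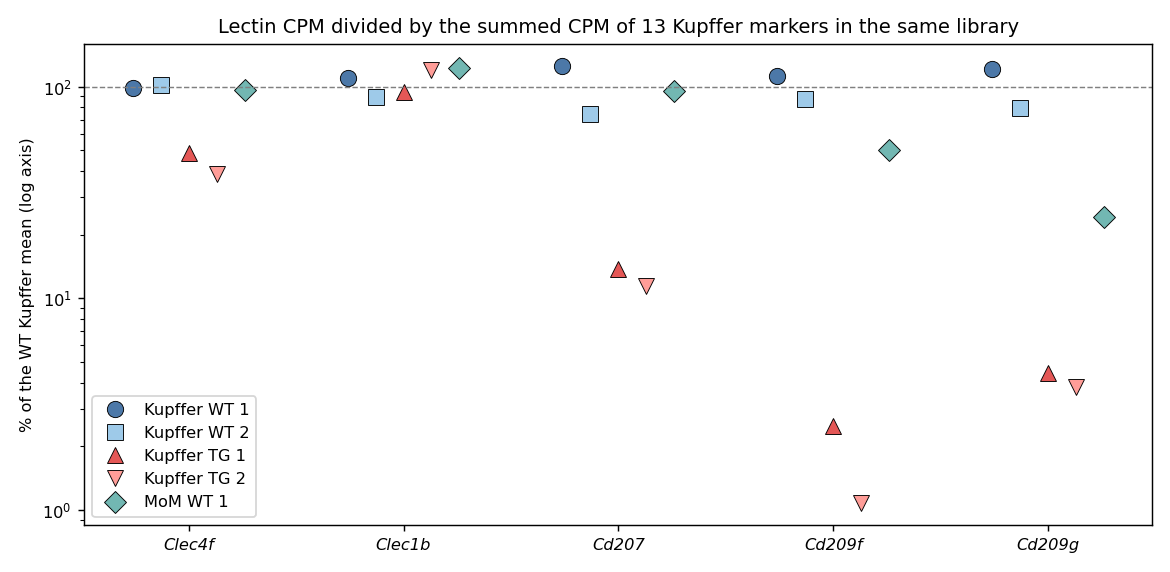
Level of 5 lectins in the WT and TG Kupffer libraries and in MoM WT replicate 1, relative to the summed CPM of 13 Kupffer markers. Values are percent of the WT Kupffer mean on a log axis, and the other MoM libraries are not drawn. Clec1b stays near 100% in the TG Kupffer libraries, Clec4f lies between 38.6% and 48.4%, Cd207 between 11.5% and 13.7%, and Cd209g and Cd209f below 5%.

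In MoM, edgeR called 0 of 9 members between TG and WT, beside 0% of all genes. At an unadjusted p below 0.05, 2 members, Cd207 and Cd209f, stood out, against 6.47% of all genes. DESeq2 called 141 genes and 1 member, Cd207. Both TG libraries lay below both WT libraries for 2 members and above for 1, against 20% and 19.2% of all genes, and the members' median was -0.09, against -0.04 over all genes.

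Cd207 stood at 82.7 and 9.94 CPM in WT MoM and at 2.33 and 0.903 CPM in TG MoM, so that the groups did not overlap (log2 fold change -4.84 ± 1.14, edgeR adjusted p = 0.755, DESeq2 adjusted p = 0.000341). Cd209f had 177 and 14 counts in WT MoM and 6 and 0 counts in TG MoM (log2 fold change -4.69 ± 1.63, edgeR adjusted p = 0.755). Among the MoM libraries both stood highest in MoM WT replicate 1, where the Kupffer markers were also highest. The source of that RNA was not tested. Without that library the log2 fold change was -2.61 for Cd207 and -1.98 for Cd209f, and it turned positive for Clec4f (1.36) and Clec1b (0.12). In the MoM libraries other than WT replicate 1, Adgre1 led the Kupffer marker sum, which may not stand for Kupffer RNA alone. Relative to that sum, Clec4f held 96.4% and 13.7% of its WT Kupffer mean in WT MoM and 27.1% and 13.9% in TG MoM. Clec1b held 123% and 194% in WT MoM and 72.4% and 210% in TG MoM. Cd207 held 95.6% and 177% in the WT MoM libraries and 21.8% and 11.9% in the TG MoM libraries. Cd209f held 50.5% and 64.1% in WT MoM, and 16.9% and 0% in TG MoM, the last of them with no count. A count of 0 in that library allows up to 0.104 CPM if counts are independent (3 counts, counting error only), and more if both mates of a fragment are counted.

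Cd209a, Mgl2 and Clec10a, the lectins of MoM, lay close together in the 2 genotypes of MoM. Their log2 fold changes for TG against WT were -0.09 ± 0.52, 0.23 ± 0.25 and -0.08 ± 0.41, with edgeR adjusted p of 0.982, 0.889 and 0.981. In Kupffer cells, Mgl2 had 0.19 ± 0.33 and Clec10a 0.04 ± 0.41. Cd209a had 1.05 ± 0.61 there, at levels of at most 1.66 CPM.

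Clec7a and Clec4n, the dectins that bind fungal glucans and mannans, had positive log2 fold changes for TG against WT in both subsets, and neither edgeR on all libraries nor DESeq2 called them between the genotypes. Clec7a stood at 409 and 245 CPM in WT Kupffer cells, 514 and 480 CPM in TG Kupffer cells, 238 and 548 CPM in WT MoM and 706 and 1001 CPM in TG MoM. In each subset the WT libraries lay below the TG libraries with no overlap. In MoM the higher library of each genotype also held more neutrophil RNA, and the part of neutrophils in the Clec7a level was not tested. The log2 fold change for TG against WT was 0.60 ± 0.46 in Kupffer cells (edgeR adjusted p = 0.802) and 1.12 ± 0.47 in MoM (adjusted p = 0.757). Between subsets it was 0.26 ± 0.46 in WT, where the groups overlapped, and 0.78 ± 0.46 in TG (adjusted p = 0.733 and 0.348). Of the alternatives, DESeq2 on the 4 TG libraries alone called it higher in MoM (0.71, adjusted p = 0.0314). GENCODE M21 lists Clec7a as a polymorphic pseudogene, a class for genes that are intact in some strains.

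Clec4n stood at 120 and 104 CPM in WT Kupffer cells, 206 and 183 CPM in TG Kupffer cells, 45.9 and 20.4 CPM in WT MoM and 42.1 and 79.1 CPM in TG MoM. It was lower in MoM than in Kupffer cells in both genotypes with no overlap, by a log2 fold change of -1.76 ± 0.46 in WT (edgeR adjusted p = 0.104) and -1.68 ± 0.46 in TG (adjusted p = 0.0926). DESeq2 called Clec4n lower in MoM in WT (adjusted p = 0.00408) and in TG (0.00532). For TG against WT it was 0.79 ± 0.45 in Kupffer cells (adjusted p = 0.738), where the groups did not overlap, and 0.87 ± 0.45 in MoM (adjusted p = 0.772), where they did.

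The interaction, the difference between TG and WT in MoM less the same difference in Kupffer cells, asks whether a lectin differed between genotypes by another amount in each subset. EdgeR called 0 of 9 members, beside 0% of all genes. At an unadjusted p below 0.05 no member stood out, against 6.42% of all genes, and DESeq2 called 47 genes and no member. The median over the members was -0.12, as over all genes. The SE ran from 0.44 for Mgl2 to 2.31 for Clec4f on the log2 scale, so the precision differed widely among the members.

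Of the 33 other C-type lectin genes, none was called by edgeR in any of the 5 comparisons. Their median log2 fold change was 1.58 for MoM against Kupffer cells in WT and 0.25 in TG, against 0.11 and -0.04 over all genes, and 0.53 and -0.22 for TG against WT in Kupffer cells and MoM. At an unadjusted p below 0.05, 17 and 14 of 33 stood out between the subsets in WT and TG, against 25.4% of all genes in each. For TG against WT, 5 of 33 stood out in Kupffer cells and 6 of 33 in MoM, against 5.94% and 6.47% of all genes. Clec4g, a lectin of the sinusoidal endothelium, moved with most of the endothelial markers. It stood at 17.7, 37.9, 13.6 and 1160 CPM in the Kupffer libraries and 658, 262, 43.0 and 306 CPM in the MoM libraries, WT before TG. Kdr, the endothelial VEGF receptor, was highest at 1107 and 946 CPM in the same libraries as Clec4g. Clec4e (Mincle), which was chosen after its values were seen, joins Clec7a and Clec4n in the signal through Card9. It stood at 1.22 and 0.709 CPM in WT Kupffer cells, 4.20 and 3.83 CPM in TG Kupffer cells, 16.1 and 92.5 CPM in WT MoM and 79.1 and 368 CPM in TG MoM (log2 fold change for MoM against Kupffer cells 5.81 ± 1.17 in WT and 5.80 ± 1.15 in TG, edgeR adjusted p = 0.0730 and 0.0569). Clec4e was highest in MoM TG replicate 2 and then MoM WT replicate 2, the libraries with the most neutrophil RNA (3707 and 649 CPM over 10 markers). The part of neutrophils in its level was not tested.

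Of 20 genes that carry the lectin signal inside the cell, 1 was called. Malt1, the paracaspase that acts with Card9 and Bcl10, stood at 31.6 and 25.2 CPM in WT Kupffer cells, 56.9 and 85.0 CPM in TG Kupffer cells, 174 and 576 CPM in WT MoM and 643 and 912 CPM in TG MoM. It rose in MoM in TG (log2 fold change 3.45 ± 0.61, edgeR adjusted p = 0.0477) and had 3.72 ± 0.62 in WT (adjusted p = 0.0536). Of all genes, 1.84% were called higher in this TG comparison. The median of the 20 genes was -0.08 in WT and 0.39 in TG for MoM against Kupffer cells, -0.17 for TG against WT in Kupffer cells and 0.52 in MoM. There 18 of 20 lay above 0, beside 7121 of all 15254 genes, and none was called. Of 8 known ligands, 1 was called, in WT, where 1.11% of all genes were called higher in MoM. Anxa1, an annexin known to bind Clec7a on dying cells, stood at 0.575 and 0.485 CPM in WT Kupffer cells and at 58.7 and 86.7 CPM in WT MoM, and rose by a log2 fold change of 7.09 ± 1.09 (edgeR adjusted p = 0.0475). In TG it stood at 3.10 and 17.2 CPM in Kupffer cells and at 64.8 and 194 CPM in MoM, with a log2 fold change of 3.67 ± 0.90 (adjusted p = 0.0780). Pdpn, the ligand of Clec1b, stayed at 0 to 1.13 CPM in the 8 libraries.

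The genes with levels most like each member were ranked by Pearson's r of log2 CPM over the 8 libraries, as a description. The 8 points are 4 groups of 2 and share the RNA of other cells. Clec4f was most like Folr2 (r = 0.998), Cd163 (0.994) and Fcna (0.994), known genes of Kupffer cells. Clec1b was most like Sept8 (0.998), and Cd207 most like Abcb4 (0.989). Cd209f had the loosest likeness of the 9, with Ctc1 at 0.963. Cd209a was most like Mgl2 (0.996), and Mgl2 most like Ltb4r1 (0.997), a leukotriene receptor. Clec10a was most like Il4i1 (0.987) and Clec7a most like Tapt1 (0.982). Clec4n was most like AW112010 (0.985), Gbp3 (0.984) and Gbp7 (0.980), the latter 2 being guanylate-binding proteins induced by interferon.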

How the data were processed

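RNA was sequenced from 2 libraries in each of 4 groups, grouped by the sample titles. Reads were aligned with STAR 2.5.2b to mm10 (the assembly GRCm38), per the submitters' processing notes. The read counter, its annotation and its use of strand were not given in the sources used here. Whole-number counts per gene symbol, unnormalized, were deposited. Even values made up 65.0% to 68.0% of counts below 20, as when both mates of a fragment are counted, so counts may overstate independent fragments. The cause of the even values was not tested. A table the authors deposited for TG against WT (179 genes) holds, per the file headers, a DESeq2 mean of normalized counts (signal), log2 fold changes and their errors, Wald statistics (a score) and p-values, raw and adjusted. Its means lay within 1% of those of the 4 Kupffer libraries for 179 genes, so it was set beside that comparison.

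All 8 libraries were fitted in edgeR 4.0.16 (R 4.3.3) with filterByExpr (15254 of 24786 genes), TMM and the quasi-likelihood F-test, with Benjamini-Hochberg adjustment over all genes for each of 5 comparisons. Calls were made below an adjusted p of 0.05. The SE is the log2 fold change divided by the square root of F. The common coefficient of biological variation came to 0.507 (4 residual and 2.37 prior degrees of freedom). The scripts were tested on simulated data. DESeq2 1.42.0 was an alternative. The others were no filter, median-of-ratios size factors, a replicate block, only the 4 libraries compared and each library left out.

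The members and the 15 gene lists were chosen with earlier results of these data known. Named were all 9 members in every library, up to 4 called members of each lectin list per comparison, the Cd209 paralogs, Clec4g, check genes, and for each member the 3 genes of highest Pearson's r of log2(CPM + 0.5) with a mean of at least 10 CPM. Of the members, 7 matched the RefSeq promoter table (GRCm38.p6). Positions and 50-base windows came from GENCODE M21, in which 24211 symbols matched 1 gene. Plots used matplotlib 3.10.9 under Python 3.11.15.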

Additional observations from a re-analysis of the deposited data

How the results depend on the processing

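Of 16 alternatives, 3 were chosen after seeing the data, a fit without both Kupffer TG replicate 2 and MoM WT replicate 1, DESeq2 on only the 4 libraries compared, and a crossed replicate block. Of 664 alternative values of the members, 561 kept their direction and side of the threshold, 16 lost a call, 53 gained one and 34 turned in sign, none of the last called. For MoM against Kupffer cells in WT, 178 genes were called. The count was 1585 with only 4 libraries, 2867 by DESeq2, 3905 by DESeq2 on 4 libraries, 2677 without both libraries, and 0 to 1434 with 1 library left out. The members called, 2 in the fit reported, were 7, 7 and 8 by DESeq2, DESeq2 on 4 libraries and without both, 3 with only 4 libraries, and 0 to 5 with 1 library left out. In TG, 381 genes were called, against 0 with only 4 libraries, 2563 by DESeq2, 3552 by DESeq2 on 4 libraries, 2130 without both and 0 to 1026 with 1 left out. The members were 2, against 0, 7, 8, 7 and 0 to 6 in that order. For TG against WT in Kupffer cells, 0 genes became 251 by DESeq2, 185 by DESeq2 on 4 libraries and 0 to 257 with 1 left out, with 2 members by each form of DESeq2 and 0 with 1 left out. In MoM the 0 genes became 141 and 222, with 1 member each. For the interaction they became 47 by DESeq2 and 0 to 83 with 1 left out.

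Signs turned at small or noisy values. Without both libraries, log2 fold changes for TG against WT were 0.14 for Clec1b in Kupffer cells and, in MoM, 1.35 for Clec4f, 0.082 for Clec1b and -0.063 for Mgl2. The interaction was then 2.17 for Clec4f, -0.068 for Mgl2 and -0.078 for Clec7a. With 1 library left out, the values whose sign turned ran over these ranges. They were, for MoM against Kupffer cells in WT, Clec7a (-0.46 to 0.73). For TG against WT in Kupffer cells they were Clec10a (-0.67 to 0.54), Clec1b (-0.52 to 0.14). For TG against WT in MoM they were Cd209a (-0.47 to 0.44), Clec10a (-0.36 to 0.29), Clec4f (-5.40 to 1.36), Clec1b (-3.17 to 0.12), Mgl2 (-0.033 to 0.56). For the interaction they were Mgl2 (-0.22 to 0.38), Clec10a (-0.63 to 0.58), Clec4n (-0.45 to 0.79), Cd209f (-3.57 to 3.86), Clec4f (-4.03 to 2.73), Clec1b (-2.996 to 0.29), Cd207 (-2.52 to 0.54). The cause was not tested.

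Replicate numbers were treated as shared numbers only: the correlation of same-numbered deviations between groups ran from -0.135 to 0.619. With the replicate block, 234 genes and 2 members were called in WT and 301 genes and 3 members in TG, Cd207 being the added one (adjusted p = 0.0483). The block called nothing in the other comparisons, as the fit without it. The crossed block for WT called 8 genes and 1 member. With 2 libraries a group, an exact permutation test cannot go below p = 0.333, so none is given. Low counts limit Cd209f outside WT Kupffer cells.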
